A study of Mus musculus with 4 samples.

Results

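The 5 Krüppel-like factor genes *Klf2*, *Klf4*, *Klf6*, *Klf9* and *Klf10* were followed through single cells of the mouse fetal hindlimb. They were chosen by gene symbol, 5 of the 32288 features counted, and the choice was made with their levels over cell types and their difference between p21 and control cells already known. Those 2 readouts are therefore described here without a test. The cells came from hindlimbs of embryos at E14.5 (femur and tibia in the labels, the whole hindlimb in the study's text), sorted for tdTomato into tdT+ and tdT- libraries in each of 2 collections, which gave 4 libraries.

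All embryos carried *Gli1CreER*, *TigreTRE-p21* and *R26LSL-tdT*, and all received doxycycline from E12.5 and tamoxifen at E13.5. The p21 embryos (*Pan-Cart-p21*MOE) also carried *Col2a1-rtTA*, a cartilage-driven transactivator that lets doxycycline turn on the cell-cycle inhibitor p21 in a mosaic of chondrocytes. The control embryos lacked *Col2a1-rtTA*. tdTomato marks cells in which *Gli1CreER* was active at the tamoxifen pulse, and their progeny. Embryos were pooled within each collection, so that a library holds cells of both conditions. The condition of a cell was read from its sex-linked transcripts, with p21 in the males of collection 1 and in the females of collection 2. The study's methods name a single p21 female, so the p21 cells of collection 2, 1448 of the 1779 p21 cells, may come from 1 embryo, although its results text describes pools. Embryos of a pool cannot be told apart, and n below counts pseudobulks (the summed cells of 1 condition in 1 library), of which the tdT+ and tdT- pseudobulks of a pool come from the same embryos. p-values therefore measure a spread that is in part technical.

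After filtering, 2767 cells remained, 1779 p21 and 988 control, in 23 clusters. The 5 clusters that were chondrocyte-like by their markers (*Col2a1*, *Acan*, *Sox9*, *Matn1* and others) held 1000 cells and were split by markers of zones into resting, proliferative and prehypertrophic chondrocyte-like cells. A further 10 clusters, with 775 cells, stayed unnamed and were counted with the non-chondrocytes, although some of them carried markers of chondrocytes. The chondrocyte pseudobulks held 45 to 318 cells and 994409 to 8636586 UMIs (unique molecules). Levels are given as CPM, counts of a gene per 1000000 UMIs of the pseudobulk. The transgene was visible through WPRE, the stabilising element of the construct, at 905 to 1759 CPM in p21 chondrocytes and 69.1 to 680 CPM in controls. The tdTomato allele can also add to WPRE. *Cdkn1a*, the gene that encodes p21, overlapped between conditions (47.9 to 62.6 CPM in p21 and 23.7 to 90.2 CPM in controls). Barcodes shared between libraries numbered 40 in all and 2 among the kept cells.

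Krüppel-like factors bind GC-rich and CACCC-like DNA through a set of zinc fingers at the C-terminus, and are related to the SP factors. *Klf2* encodes a factor best known from endothelium, where fluid flow induces it through the kinase ERK5 and MEF2 factors, and from resting lymphocytes. *Klf4* encodes its closest relative in these roles, which is also a reprogramming factor and a regulator of the skin barrier. *Klf6* encodes a widely expressed factor that is induced by growth and injury signals. *Klf9* is induced by glucocorticoids and thyroid hormone. *Klf10* was named for its early induction by TGF-beta. Several of these genes behave as immediate early genes, whose transcripts rise within minutes of a stimulus, including enzymatic dissociation of a tissue. Here the cartilage received a longer enzymatic digestion than the soft tissue, so cell type and dissociation cannot be told apart when chondrocytes are set against other cells.

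The 5 genes lie on different chromosomes (GRCm38, GENCODE M21, all protein-coding). *Klf2* (ENSMUSG00000055148) is at chr8:72319033-72321656 on the plus strand, with 3 exons. *Klf4* (ENSMUSG00000003032) is at chr4:55527143-55532466 on the minus strand. *Klf6* (ENSMUSG00000000078) is at chr13:5861482-5870394 and *Klf9* (ENSMUSG00000033863) at chr19:23141226-23168134, both on the plus strand. *Klf10* (ENSMUSG00000037465) is at chr15:38291463-38300706 on the minus strand. The annotation places *Mir1192* within *Klf9*, on the same strand, and no other gene over any of the 5.

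Promoter sequence, 250 bases before to 50 after the start site (RefSeq, GRCm38.p6), was matched for 4 of the 5 genes (*Klf2*, *Klf4*, *Klf6* and *Klf9*). Those of *Klf2*, *Klf4* and *Klf6* are shown here because *Klf2* and *Klf4* had the most alike levels over cell types, and *Klf2* and *Klf6* were the members that were lower in p21 chondrocytes. They are the windows chr8:72318812-72319111 (plus strand), chr4:55532426-55532725 (minus strand) and chr13:5861239-5861538 (plus strand), 5′ to 3′, and capitals mark a MEF2 site, a TATAA or a CCAAT on either strand.
Klf2: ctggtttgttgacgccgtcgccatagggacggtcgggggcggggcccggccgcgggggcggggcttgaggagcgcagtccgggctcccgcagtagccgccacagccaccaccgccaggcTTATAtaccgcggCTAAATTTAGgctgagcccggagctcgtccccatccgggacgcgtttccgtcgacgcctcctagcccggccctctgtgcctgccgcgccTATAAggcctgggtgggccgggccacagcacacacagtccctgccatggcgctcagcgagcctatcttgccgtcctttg
Klf4: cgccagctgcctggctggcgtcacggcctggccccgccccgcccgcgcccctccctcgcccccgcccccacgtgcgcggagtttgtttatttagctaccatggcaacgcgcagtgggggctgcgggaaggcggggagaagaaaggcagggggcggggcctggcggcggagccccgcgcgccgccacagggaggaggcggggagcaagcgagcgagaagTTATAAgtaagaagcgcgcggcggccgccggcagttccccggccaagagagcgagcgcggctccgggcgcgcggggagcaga
Klf6: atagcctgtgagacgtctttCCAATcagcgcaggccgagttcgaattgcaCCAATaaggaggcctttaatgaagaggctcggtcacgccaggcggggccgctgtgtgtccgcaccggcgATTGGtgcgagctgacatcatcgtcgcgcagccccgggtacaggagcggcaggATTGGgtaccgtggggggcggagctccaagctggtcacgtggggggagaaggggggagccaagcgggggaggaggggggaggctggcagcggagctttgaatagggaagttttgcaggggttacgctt

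The *Klf2* window held 1 MEF2 site, CTAAATTTAG, 118 bases before the start, and a TATAA at 29 bases before it. A MEF2 site was present in 3.19% of the 32851 promoters in the table, and in none of the windows of *Klf4*, *Klf6* and *Klf9*. The *Klf4* window held TATAA on both strands in 1 overlapping stretch, 31 to 32 bases before the start. TATAA was found in 24.9% of all promoters. The *Klf6* window had neither, but held 4 copies of CCAAT (37.4% of all promoters hold at least 1), and the *Klf9* window held 3, a pair of which overlap. No window held a CArG box, the serum response element core (1.63% of all promoters). GGGCGG, the GC box bound by SP factors, occurred 4 times in *Klf4*, 2 times in *Klf2* and 1 time in *Klf6*, and in 35.7% of all promoters. TGACGT, the core of the cAMP response element, was seen only in *Klf9* among the 4 windows (7.51% of all promoters), 46 bases before the start. CACGTG was in *Klf4* and *Klf6* (7.15% of all promoters). The GC content of the 4 windows was 63.0% to 74.3%, against a median of 52.7% over all promoters. These letters describe the windows and do not show that a factor was bound.

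*Klf2* was graded over the cell types of the limb. In control cells its level was 909 ± 309 CPM (SD, n = 4) in resting and 908 ± 141 CPM (n = 4) in proliferative chondrocyte-like cells. It was 459 ± 96.6 CPM (n = 3) in interzone or articular-like cells and 333 ± 8.55 CPM (n = 2) in prehypertrophic chondrocyte-like cells, the most mature cartilage cells captured. Osteoprogenitor-like cells held 231 ± 59.5 CPM (n = 4), loose mesenchyme-like cells 120 ± 65.4 CPM (n = 4) and perichondrium or groove of Ranvier-like cells 94.5 ± 20.2 CPM (n = 2). The first pair did not differ beyond their spread, and neither did the last pair. The steps from proliferative to interzone, from interzone to prehypertrophic and from prehypertrophic to osteoprogenitor-like cells had no overlapping values.

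Taken over all chondrocytes, *Klf2* lay between 555 and 978 CPM in the 8 pseudobulks, and between 217 and 451 CPM in the other cells. The groups did not overlap, and within a pseudobulk the ratio of chondrocytes to other cells was 1.92 to 3.02. The rule used these levels, so the ratio is a description. The immediate early genes *Fos*, *Jun* and *Egr1* were also higher in chondrocytes in 8 of 8 pseudobulks without overlap. Their median ratios were 2.24, 2.83 and 2.07, against 2.63 for *Klf2*. The heat shock gene *Hspa1a* was higher in 7 of 8, with overlap. The share of all genes without overlap between chondrocytes and other cells is not given here for any member. Among the unnamed clusters, the one led by *Isl1* (131 cells) held 1102 CPM in its 1 control pseudobulk and 760 ± 104 CPM (n = 3) in p21, so that a high level of *Klf2* was not confined to chondrocytes. The levels are sums over cells, in which fewer positive cells and fewer transcripts per cell cannot be told apart. These parts were not separated here, although counts per cell were available.

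*Klf4* followed *Klf2* over the classes, with a flatter top. In control cells it was 446 ± 40.6 CPM (n = 4) in proliferative, 442 ± 77.5 CPM (n = 3) in interzone, 418 ± 110 CPM (n = 4) in resting and 330 ± 130 CPM (n = 2) in prehypertrophic chondrocyte-like cells, and no neighbours in this order differed beyond their spread. Osteoprogenitor-like cells followed at 176 ± 19.4 CPM (n = 4), with no overlap with the class above them. Loose mesenchyme-like cells held 126 ± 34.0 CPM (n = 4). All chondrocyte pseudobulks lay between 403 and 456 CPM and all others between 153 and 249 CPM.

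**Figure D1:**
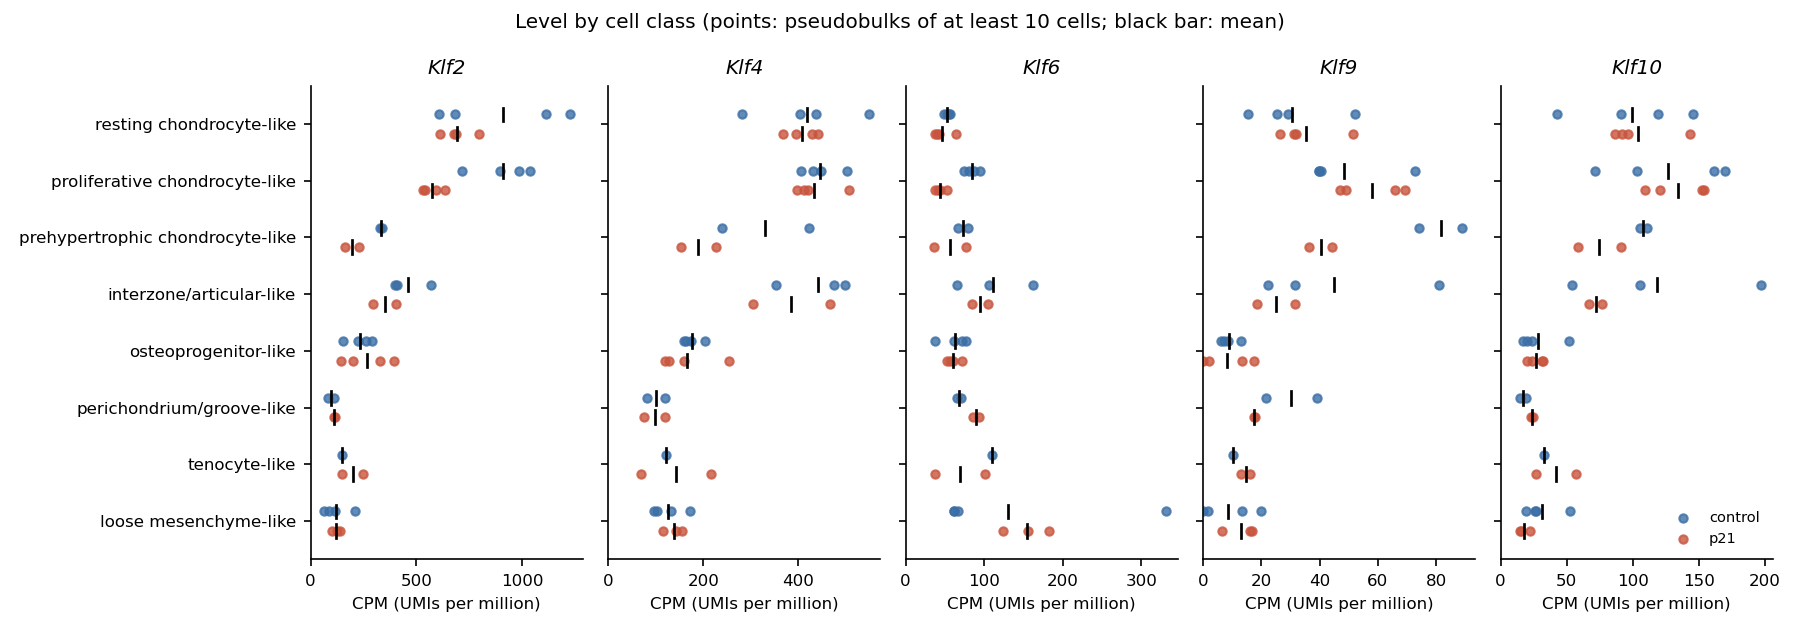
Level of the 5 genes (CPM, linear axes that start at 0 and differ between genes) in 8 cell classes, where each point is a pseudobulk of at least 10 cells, blue for control and red for p21, and the black bar is the mean. *Klf2* falls from 909 CPM in control resting chondrocyte-like cells to 94.5 CPM in perichondrium-like cells, while *Klf6* has its highest point, 331 CPM, in a loose mesenchyme-like pseudobulk.

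*Klf9* and *Klf10* were also higher in chondrocytes than in other cells in 8 of 8 pseudobulks. *Klf9* was 36.6 to 65.4 CPM in chondrocytes and 7.70 to 19.7 CPM elsewhere. In control cells its highest class was prehypertrophic (81.6 ± 10.4 CPM, n = 2), above proliferative (48.2 ± 16.4 CPM, n = 4) with no overlap, and its lowest were osteoprogenitor-like (8.74 ± 3.15 CPM, n = 4) and loose mesenchyme-like cells (8.67 ± 9.49 CPM, n = 4). In p21 cells proliferative stood at 57.9 ± 11.3 CPM (n = 4) and prehypertrophic at 40.4 ± 5.64 CPM (n = 2, both from collection 2). The p21 prehypertrophic cells of collection 1 were too few to be counted. They held 141 CPM in 2 cells (tdT+) and 109 CPM in 6 cells (tdT-). The change of order at the top in p21 therefore rests on collection 2 alone. *Klf10* was 64.7 to 148 CPM in chondrocytes and 27.0 to 56.5 CPM elsewhere. Its 4 highest classes in controls, between 127 ± 47.2 CPM (proliferative, n = 4) and 99.4 ± 44.0 CPM (resting, n = 4), did not differ beyond their spread.

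*Klf6* ran the other way, clearly so only in p21 cells. It was lower in chondrocytes than in other cells in 7 of 8 pseudobulks. The median ratio over both conditions was 0.563, with overlapping ranges (38.2 to 82.9 CPM and 68.8 to 146 CPM). The exception was the control pseudobulk of the tdT- library of collection 1, with a ratio of 1.20. In p21 cells the ranges did not overlap (38.2 to 52.9 CPM in chondrocytes and 77.7 to 94.1 CPM in other cells). In control cells they did (70.2 to 82.9 CPM and 68.8 to 146 CPM). Control levels were close in the tdT+ libraries, with 70.2 and 75.2 CPM in chondrocytes and 70.8 and 77.9 CPM in other cells. The 146 CPM came from 1 library, where control chondrocytes held 82.5 CPM. The low median ratio of *Klf6* therefore rests mainly on p21 cells. Among the named classes of p21 cells its highest was loose mesenchyme (154 ± 29.2 CPM, n = 3), without overlap with the next. Its lowest was proliferative (43.7 ± 6.96 CPM, n = 4). An unnamed cluster of 108 cells overlapped loose mesenchyme, with 159 and 184 CPM in its p21 pseudobulks of at least 10 cells. In control cells the loose mesenchyme pseudobulks spread from 61.3 to 331 CPM and overlapped the class below them.

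Over 76 pseudobulks of 19 classes or clusters, and among 7147 genes with a mean of at least 20 CPM, the gene most like *Klf2* was *Klf4* (Pearson r = 0.86 of log2(CPM + 1)). It was followed by *Cytl1* (0.86), a secreted product of resting chondrocytes, the AP-1 subunit *Junb* (0.85), *Fgfrl1* (0.85) and the immediate early gene *Ier2* (0.84). The genes most like *Klf4* were *Klf2* (0.86), *Id4* (0.86), *Nr4a1* (0.84), *Sox5* (0.83) and *Fosb* (0.83). These lists mix genes of cartilage with immediate early genes. *Fos* ranked 9 for *Klf2* (r = 0.83) and 10 for *Klf4* (r = 0.81). *Klf10* also followed *Fos* (0.76), *Klf9* less so (0.53), and *Klf6* had an r of -0.07 with *Fos* and -0.31 with *Klf2*. The pseudobulks share libraries and embryos, so these values are descriptions without a test.

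**Figure D2:**
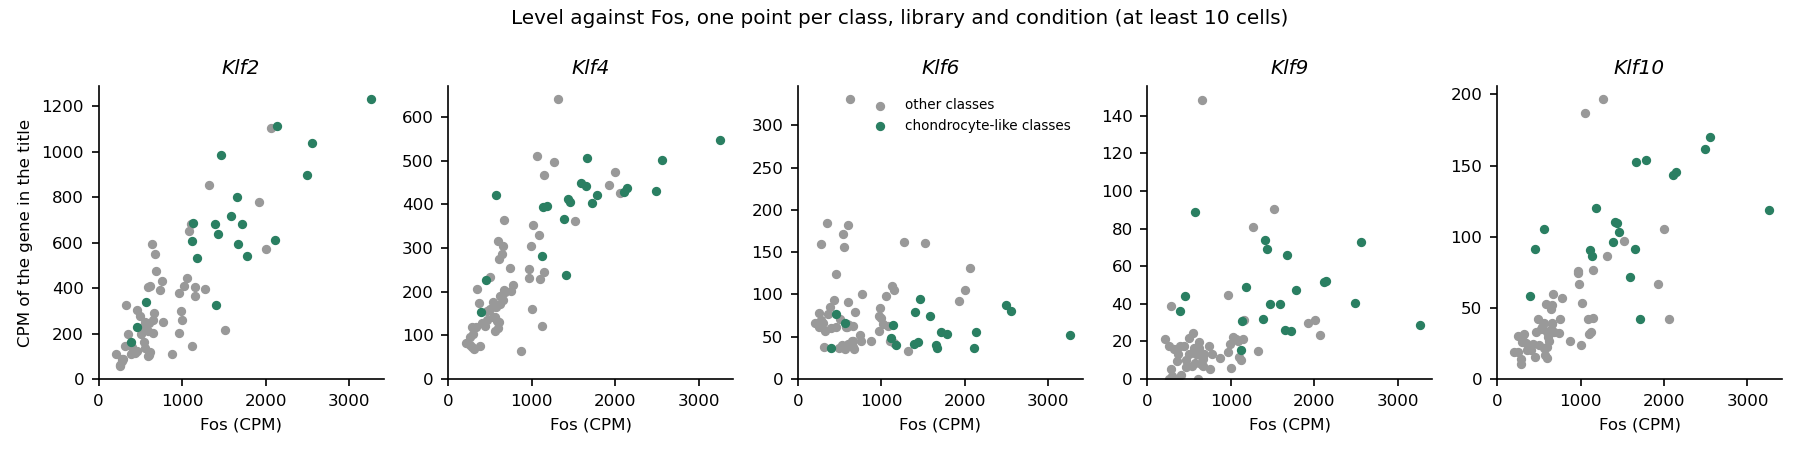
Level of each gene (CPM, y axis) against *Fos* (CPM, x axis), 1 point per class, library and condition with at least 10 cells, green for chondrocyte-like and grey for other classes. *Klf2*, *Klf4* and *Klf10* rise with *Fos* (r of 0.83, 0.81 and 0.76 on the log2 scale over 76 points), and *Klf6* does not (r = -0.07).

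The same pairs held between cells. Across the chondrocyte-like cells of a pseudobulk, *Klf2* and *Klf4* had a median r of 0.47 (range 0.32 to 0.62 over 8 pseudobulks), and *Klf2* had 0.46 with *Fos*, 0.41 with *Jun* and 0.37 with *Egr1*. *Klf4* had 0.45 with *Egr1*, and *Klf10* had 0.32 with *Klf4*. *Klf6* was near 0 with *Klf2* (0.09), *Klf4* (0.03) and *Fos* (0.07). These counts are sparse and share the depth of each cell, and the values are given as descriptions.

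Overexpression of p21 was accompanied by lower *Klf2* and *Klf6* in chondrocytes, while *Klf4*, *Klf9* and *Klf10* overlapped between conditions. *Klf2* in control chondrocytes was 707 CPM (tdT+) and 978 CPM (tdT-) in collection 1, and 868 CPM (tdT+) and 827 CPM (tdT-) in collection 2. In p21 chondrocytes it was 591 CPM and 555 CPM in collection 1 and 596 CPM and 562 CPM in collection 2. Every p21 value lay below every control value, and the spread within p21 (SD 20.6 CPM) was narrower than within controls (SD 112 CPM). Within libraries the ratio of p21 to control was 0.836, 0.568, 0.687 and 0.679. The edgeR log2 difference was -0.57 (SE 0.093).

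*Klf6* in control chondrocytes was 70.2 CPM (tdT+) and 82.9 CPM (tdT-) in collection 1, and 75.2 CPM (tdT+) and 82.5 CPM (tdT-) in collection 2. The p21 values were 46.8 CPM and 40.2 CPM in collection 1 and 38.2 CPM and 52.9 CPM in collection 2, again all below the controls. These rest on 40 to 457 UMIs a pseudobulk. The ratio within libraries was 0.485 to 0.667, and the log2 difference was -0.81 (SE 0.12).

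*Klf4* was 407 to 438 CPM in control and 403 to 456 CPM in p21 chondrocytes (log2 difference -0.02, SE 0.070). The gene most like *Klf2* over cell types thus had overlapping conditions where *Klf2* had none. *Klf9* was 36.6 to 56.7 CPM in control and 42.8 to 65.4 CPM in p21 (0.18, SE 0.15). *Klf10* was 64.7 to 148 CPM in control and 102 to 136 CPM in p21 (0.10, SE 0.20). For both, 2 libraries had a lower and 2 a higher value in p21.

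**Figure D3:**
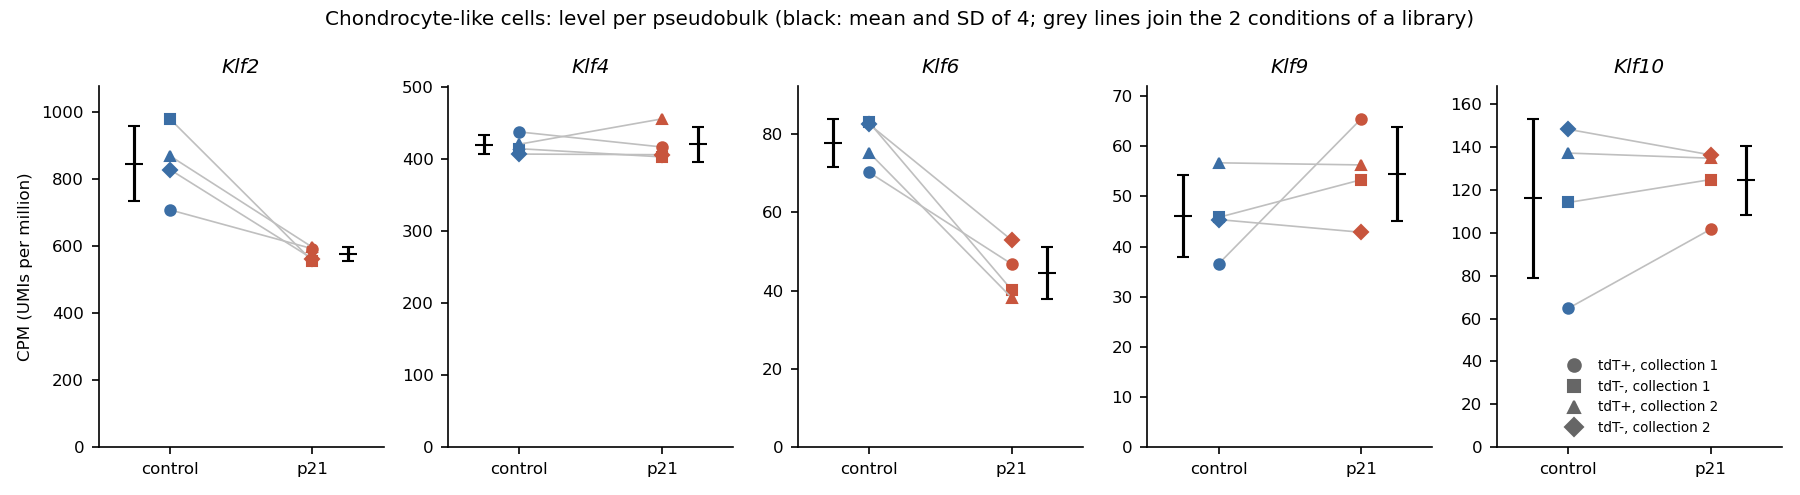
Level of the 5 genes in chondrocyte-like cells (CPM, axes start at 0), with 1 symbol shape per library, grey lines joining the 2 conditions of a library, and black bars for the mean and SD of 4 pseudobulks. All 4 p21 values of *Klf2* (555 to 596 CPM) and *Klf6* (38.2 to 52.9 CPM) sit below all 4 controls, and the conditions overlap for *Klf4*, *Klf9* and *Klf10*.

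Of 12179 genes tested in chondrocytes, 0.411% passed an adjusted p of 0.05 (edgeR quasi-likelihood test, Benjamini-Hochberg; 15 higher and 35 lower in p21). The lower calls were 0.287% of the genes tested, and 3.01% of the genes had all 4 p21 values below all 4 controls (3.81% had them all above). *Klf2* and *Klf6*, 2 of the 5 members, were among the genes without overlap. The choice of the genes had used this contrast, so nothing is read from that count, and no p is given for a member. The log2 difference lay between -0.66 and -0.50 for *Klf2* and between -0.90 and -0.75 for *Klf6* when single pseudobulks were left out. With the tdT+ and tdT- cells of each embryo pool summed, which leaves 2 pools against 2, it was -0.60 for *Klf2* and -0.81 for *Klf6*.

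The zones of the cartilage are given side by side, and the difference between them was not tested. In proliferative chondrocyte-like cells *Klf2* was 908 ± 141 CPM in control and 576 ± 48.9 CPM in p21 (n = 4 each), lower in 4 of 4 libraries with no overlap. *Klf6* was 84.2 ± 8.44 CPM and 43.7 ± 6.96 CPM, also lower in 4 of 4 libraries with no overlap. The share of all genes without overlap in proliferative cells is not given here, so nothing is read from these counts. In resting chondrocyte-like cells the conditions overlapped for both genes. *Klf2* was lower in p21 in both tdT- libraries (ratios 0.550 and 0.650) and not in the tdT+ libraries (1.01 and 1.12), and *Klf6* was 53.1 ± 3.32 CPM in control and 45.8 ± 12.3 CPM in p21. Proliferative chondrocyte-like cells made up 58.7% ± 10.0 of p21 and 69.2% ± 6.37 of control chondrocytes (n = 4 each), and resting ones 33.5% ± 7.57 and 22.6% ± 4.86, with overlapping values in both zones. The part of these shares in the lower *Klf2* and *Klf6* was not tested. An unnamed cluster with some resting markers (*Pthlh*, *Cytl1* and *Gdf10*; 5.66% of p21 and 9.22% of control cells) had *Klf2* lower in p21 in 3 of 3 libraries, with ratios of 0.361 to 0.942. Other classes varied. *Klf2* was lower in p21 in 2 of 4 libraries in osteoprogenitor-like cells (0.881 to 1.51) and in 0 of 3 in loose mesenchyme-like cells (1.14 to 2.01). In perichondrium-like cells (1.07 to 1.36) and in the unnamed clusters of 165 and 108 cells it was lower in 0 of 2 libraries each.

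Other signals also differed between conditions in chondrocytes. The summed level of 31 immediate early and dissociation genes in chondrocytes was 11337 to 13757 CPM in p21 and 13956 to 17462 CPM in controls, with no overlap. The sums were nearest in the tdT- library of collection 1, with 13757 CPM in p21 and 13956 CPM in control. In that library the ratios of p21 to control for *Klf2* (0.568) and *Klf6* (0.485) were the lowest of the 4 libraries. Of the 31, 22 had a lower and 9 a higher value in p21, with a median log2 difference of -0.18 against -0.0007 over all genes tested. An unadjusted p under 0.05 (edgeR) was found for 17 of them, and for 1336 of all 12179 genes tested. After adjustment 1 of the 31 passed, *Ier2* (-0.45, SE 0.069, edgeR adjusted p = 0.0234). It no longer passed with the fractions of a pool summed (0.227) or at a finer clustering (0.0688). Nor did it pass without the p21 cells of tdT+ (0.0934) or tdT- (0.122) of collection 2, or the controls of tdT+ (0.0761) or tdT- (0.0575) of collection 1 or of tdT+ (0.0507) of collection 2. *Fos* differed by -0.40 (SE 0.13), *Egr1* by -0.37 (SE 0.12) and *Hspa8*, a constitutive chaperone, by -0.44 (SE 0.086), and none of these passed. A pair of inducible heat shock genes had the largest log2 differences of the list. *Hspa1a* was 344 to 569 CPM in control and 19.8 to 164 CPM in p21 chondrocytes (-2.56, SE 0.52, edgeR adjusted p = 0.0657). *Hspa1b*, its near-identical neighbour, so that the split of reads between them is uncertain, was 378 to 599 CPM and 31.0 to 231 CPM (-2.14, SE 0.53, edgeR adjusted p = 0.122). Neither overlapped between conditions, and neither passed. The 7 heat shock genes of the list summed to 2596 to 3878 CPM in p21 and 4185 to 5459 CPM in controls. In non-chondrocytes the list overlapped between conditions (6656 to 7613 CPM in p21 and 5869 to 8646 CPM in controls). Its part in the lower *Klf2* and *Klf6* was not tested.

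Cells of other lineages were few among the chondrocytes. The 8 immune markers summed to 6.07 to 93.2 CPM in p21 and 2.47 to 202 CPM in controls, the 9 muscle markers to 3.19 to 106 CPM and 7.69 to 34.1 CPM, and the 8 endothelial markers to 161 to 226 CPM and 88.5 to 215 CPM. Most of the endothelial sum was *Pecam1* (58.5 to 166 CPM). *Cdh5*, which defines endothelium, had a median of 0.164 CPM and a highest value of 20.5 CPM. When 46 cells with at least 3 immune, muscle, erythroid or endothelial markers were left out, the log2 difference was -0.57 for *Klf2* and -0.85 for *Klf6*. Chondrocytes held 22098 to 33573 UMIs a cell in p21 and 20624 to 34359 in controls.

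In non-chondrocytes all 5 members overlapped between conditions. *Klf2* was 217 to 293 CPM in p21 and 261 to 451 CPM in control non-chondrocytes, lower in 3 of 4 libraries, with a log2 difference of -0.34 (SE 0.17). *Klf4* was 153 to 249 CPM and 176 to 232 CPM (0.03, SE 0.16), and *Klf6* was 77.7 to 94.1 CPM and 68.8 to 146 CPM (-0.02, SE 0.19). *Klf9* differed by -0.08 (SE 0.22) and *Klf10* by 0.11 (SE 0.20). Over all 14012 genes tested there, 0.00714% were called (1 gene, *Gm28653*) and 1.57% had all p21 values below all controls, and no p is given for a member. Without the 775 cells of the unnamed clusters, which left 992, the conditions again overlapped for all 5 members. *Klf2* was then 142 to 231 CPM in p21 and 144 to 368 CPM in control, and *Klf6* 82.9 to 104 CPM and 64.8 to 181 CPM. Between chondrocytes and other cells the difference of these differences was not tested.

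The tdT fraction, which the choice of the genes had not used, was tested next. It asks whether chondrocytes of the traced *Gli1* lineage differ from their neighbours. No member passed in tdT+ against tdT- chondrocytes (0 of 5, with 0.0246% of 12179 genes called). The log2 difference of *Klf2* was -0.07 (95% interval -0.28 to 0.13; edgeR adjusted p = 0.979). *Klf4* had 0.07 (-0.08 to 0.22; adjusted p = 0.974, edgeR) and *Klf6* -0.22 (-0.47 to 0.04; adjusted p = 0.951, edgeR). The intervals of *Klf9* (-0.15 to 0.52) and *Klf10* (-0.71 to 0.16) were wider. For every member but *Klf10* the interval ended short of a difference of the size that *Klf2* showed between conditions. The 3 genes called were *tdt*, which was higher, and *Gt(ROSA)26Sor* and *Ostn*, which were lower in tdT+ cells. With the embryo pool as a replicate block, which is the pairing by origin, 22 of 12727 genes passed, and again no member did.

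The difference between p21 and control was also compared between the 2 fractions. The interaction was 0.29 for *Klf2* (95% interval -0.10 to 0.68; edgeR adjusted p = 1.00), 0.05 for *Klf4* (-0.28 to 0.39), -0.02 for *Klf6* (-0.57 to 0.53), 0.34 for *Klf9* (-0.33 to 1.02) and 0.25 for *Klf10* (-0.65 to 1.15). No gene passed (0% of 12727 by edgeR, 420 with an unadjusted p under 0.05, 0 by DESeq2 and 0 by limma-voom). These intervals are wide, and a difference of 0.5 between fractions was not excluded for any member but *Klf4*.

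The collections, which differ in the sex that carried p21, were compared last. Of the 5 members *Klf10* had the largest difference, 0.50 higher in collection 2 (95% interval 0.20 to 0.81; edgeR adjusted p = 0.684), and it did not pass. The others were between 0.02 (*Klf9*) and 0.06 (*Klf6*), with intervals of -0.17 to 0.25 for *Klf2* and -0.11 to 0.20 for *Klf4*. The test called 0% of 12727 genes by edgeR (786 with an unadjusted p under 0.05), 8 by DESeq2 and 0 by limma-voom. *Fos*, which followed *Klf10* over the classes, was 0.38 higher in collection 2 (SE 0.066, edgeR adjusted p = 0.409).

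**Figure D4:**
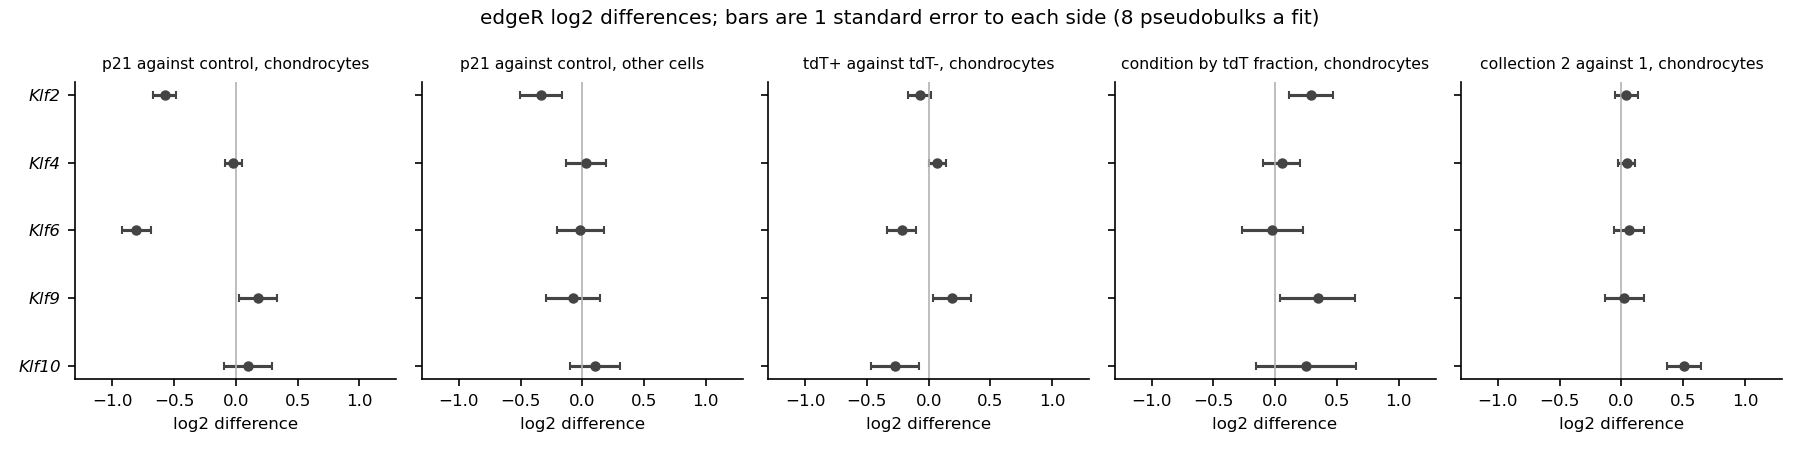
Log2 differences of the 5 genes from edgeR (points, with bars of 1 standard error to each side) in 5 comparisons over 8 pseudobulks each. *Klf2* (-0.57) and *Klf6* (-0.81) stand to the left in p21 against control chondrocytes, and *Klf10* (0.50) to the right in collection 2 against 1.

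The rest of the family was measured in the same fit. Of 12 other KLF genes, 10 were tested in chondrocytes and 0 passed between p21 and control by edgeR. An unadjusted p under 0.05 was found for 1 of them, against 1336 of all 12179 genes tested. Of the 10, 3 were higher and 7 lower, with a median log2 difference of -0.22. *Klf12*, a repressor, was 173 to 222 CPM in control and 172 to 247 CPM in p21 (0.11, SE 0.12). *Klf3*, another repressor, was 62.3 to 88.2 CPM and 75.3 to 106 CPM (0.14, SE 0.14), and *Klf7* was 57.8 to 65.4 CPM and 42.2 to 60.4 CPM (-0.24, SE 0.13). Of 9 SP genes, 5 were tested and 0 passed. *Sp3* (-0.07, SE 0.11), *Sp4* (-0.33, SE 0.17) and *Sp1* (-0.04, SE 0.15) had the highest levels among them. *Sp7*, the osteoblast factor osterix, was 7.21 to 22.5 CPM in control and 10.2 to 17.6 CPM in p21 chondrocytes.

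Genes of the known inputs were measured beside their target. Of 12 genes of the ERK5-MEF2 route to *Klf2*, all were tested and 0 passed in p21 chondrocytes by edgeR, with a median of 0.03. An unadjusted p under 0.05 was found for 1 of them, against 1336 of all 12179 genes tested. *Mef2c*, the MEF2 factor that is needed for chondrocyte hypertrophy, differed by 0.20 (SE 0.17), *Mef2a* by -0.08 (SE 0.13) and the MEF2 corepressor *Hdac4* by -0.09 (SE 0.13). Of 15 TGF-beta pathway genes 0 passed (1 unadjusted; median 0.02). *Smad7*, an inhibitory SMAD, was 160 to 212 CPM in control and 240 to 295 CPM in p21 with no overlap, and differed by 0.42 (SE 0.11, edgeR adjusted p = 0.129). The corepressors *Ski* (-0.12, SE 0.092) and *Skil* (-0.11, SE 0.080) were near 0. Of 8 glucocorticoid response genes 0 passed (0 unadjusted; median 0.04). *Errfi1* (0.10, SE 0.20), *Tsc22d3* (-0.07, SE 0.13) and *Fkbp5* (-0.07, SE 0.12) were the highest of them.

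Of 9 genes listed as targets of KLF2 and KLF4 in endothelium and T cells, 3 passed the filter on low counts, and *Vcam1*, an adhesion molecule that KLF2 represses in endothelium, rose. It was 20.3 to 37.1 CPM in control and 42.0 to 56.4 CPM in p21 chondrocytes, with no overlap (log2 difference 0.84, SE 0.14, edgeR adjusted p = 0.0340). The call was lost on removal of any 1 of the 8 pseudobulks (adjusted p of 0.0563 to 0.132, edgeR). It was also lost with the library as a replicate block (0.0661), without the fraction term (0.0535) and with the fractions of a pool summed (0.182), and the difference fell to 0.52 with at least 3000 UMIs a barcode and to 0.60 at a finer clustering. Neither *Thbd* (-0.50, SE 0.31), which KLF2 activates in endothelium, nor *Txnip* (-0.34, SE 0.23) passed. *S1pr1* and *Nos3*, also on the list, had 70 and 27 UMIs over all chondrocytes and did not pass the filter.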

How the data were processed

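Cells of E14.5 hindlimbs were profiled as 4 droplet libraries. The authors used 10x 3′ chemistry and, per their processing notes, Cell Ranger 7.2.0 with GRCm38 (mm10) plus transgene sequences. The deposited values are counts of UMIs per gene and barcode (18955 barcodes, 104023046 UMIs), at least 500 UMIs each.

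Barcodes with at least 1000 UMIs, at least 500 genes and at most 10% mitochondrial UMIs were kept (6873). Sex was called from at least 2 sex-linked UMIs with a share of at least 0.8. It left 277 mixed barcodes and 3729 without a call out, of which 2747 were in the tdT- library of collection 2. The highest 5% of Scrublet scores among barcodes of at least 3000 UMIs were removed (100). Median UMIs of kept cells were 16503 to 27184 per library. Cells were clustered (scanpy 1.11.5, 2000 variable genes, 30 components, Leiden resolution 1) without KLF, SP, immediate early, sex-linked, cell-cycle and transgene genes. Clusters were named from at least 3 detected markers, with thresholds set after seeing the clusters. Pseudobulks of at least 10 cells gave levels.

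Counts were summed per library and condition and tested with edgeR 4.0.16 (TMM factors 0.969 to 1.03, quasi-likelihood, expression filter, Benjamini-Hochberg over all genes, threshold 0.05), two-sided. The p21 fits had the tdT fraction as a term, the fraction fit the condition. DESeq2 1.42.0 and limma 3.58.1 were alternatives. In data simulated on these means, a log2 change of 1 was recovered in 69% (p21 in chondrocytes), 67% (p21 in non-chondrocytes), 74% (fraction), 12% (interaction) and 68% (collection) of 200 changed genes, each over the genes tested.

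The members, gene lists and tests were chosen with earlier results of these data known. Named were the 5 members, in each list the genes that passed (up to 5 a direction), otherwise the 3 with the highest chondrocyte level, and the 5 genes most like *Klf2* and *Klf4*. *Fos*, *Egr1*, *Hspa8*, *Hspa1a*, *Hspa1b*, *Smad7*, *Sp7*, *Pecam1*, *Cdh5* and the untested targets were named after their values were seen where that rule did not name them.

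Same-numbered tdT+ and tdT- cells come from the same embryo pool, and their deviations from the group means correlated at 0.159 (p21) and 0.184 (control) over 11800 genes. Cells of the 2 conditions in a library correlated at -0.0982 (tdT+) and -0.0285 (tdT-), so these values show no pairing by library. The conditions of a library differ in sex and swap it between collections, so a shared library effect was not excluded. Ambient RNA was not removed here.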

Additional observations from a re-analysis of the deposited data

Results flagged for a closer look

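In 40 groups of 4 pseudobulks (5 genes, 2 conditions, and chondrocytes, other cells, resting and proliferative chondrocyte-like cells), the gap of the highest or lowest value to its neighbour passed Dixon's critical value in 3. Chance flags about 1 group in 20. *Klf6* in control non-chondrocytes was 146 CPM in the tdT- library of collection 2, where the other 3 libraries held 68.8 to 77.9 CPM. *Klf9* in control proliferative chondrocyte-like cells was 72.8 CPM in the tdT+ library of collection 2, against 39.8 to 40.4 CPM in the others. *Klf10* in p21 resting chondrocyte-like cells was 143 CPM in the tdT- library of collection 1, against 86.5 to 96.1 CPM. No member's difference between conditions passed a test between the tdT fractions.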

How the results depend on the processing

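The log2 difference of *Klf2* between p21 and control chondrocytes ranged from -0.73 to -0.50 over 18 alternatives and that of *Klf6* from -0.91 to -0.63, given as a description since the genes were chosen on this contrast. *Klf4* and *Klf10* changed sign in 3 and 2 of 18. In that comparison the 50 genes called became 148 with DESeq2, 100 with limma-voom, 535 without the filter on low counts, 22 at Leiden resolution 2, 29 with the library as a replicate block, and 2 with the fractions of a pool summed. Leaving out 1 pseudobulk gave 0 to 49 genes. The lowest, 0 genes, came without the p21 cells of the tdT- library of collection 2, and 3 were called without those of tdT+ collection 2. The count was 9 without the controls of tdT+ collection 1, 20 without those of tdT- collection 1, 18 without the p21 cells of tdT- collection 1 and 30 without those of tdT+ collection 1.

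In non-chondrocytes the 1 gene called became 10 (DESeq2), 286 (no filter), 0 (fractions summed) and 0 (no fraction term), and 1 to 2 in removals. For tdT+ against tdT-, 3 became 12 (DESeq2), 22 (pool as a replicate block) and 313 (no filter), and 1 to 11 in removals. The interaction's 0 became 1 (pool block) and 61 (no filter), and 0 to 1 in removals. The 0 of the collections became 8 (DESeq2), 1 (resolution 2) and 208 (no filter, with 1 member, *Klf10*), and 0 in every removal. The pool as a block changed no call of a member between tdT fractions or in the interaction. Leaving the unnamed clusters out of the non-chondrocytes, an alternative chosen after seeing the data, moved the median ratio of p21 to control by less than 1 SD for all 5 members. Of 40 levels recomputed in control cells at resolution 2 or with at least 3000 UMIs a barcode, 36 moved by less than 1 SD. With 2 embryo pools a condition, precision rests on the number of pools and not on depth. Counting without the filter tests genes of few UMIs, and the cause of the other shifts was not tested.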

Other observations

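*Pecam1*, an adhesion molecule used as an endothelial marker, was present in all 8 chondrocyte pseudobulks at 58.5 to 166 CPM (3543 UMIs), whereas *Cdh5* had 231 UMIs, *Tie1* 72 and *Cldn5* 91 over the same cells. These genes were singled out after their values were seen.

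In 2 small unnamed clusters that came almost only from p21 cells of collection 2, most members lay outside the range of the chondrocyte pseudobulks. One (76 cells, 75 of them from the tdT+ library, with a median UMI count 0.141 of its library's) held 216 CPM of *Klf2*, 361 CPM of *Klf4*, 161 CPM of *Klf6* and 90.2 CPM of *Klf9*, and its *Klf10* (96.7 CPM) lay inside that range. The other (36 cells, 34 of them from the tdT- library, with *Cdkn1a* among its leading genes) held 446 CPM of *Klf2*, 510 CPM of *Klf4*, 97.7 CPM of *Klf6*, 187 CPM of *Klf10* and 21.2 CPM of *Klf9*, the last from 5 UMIs. Each is 1 pseudobulk, and a cluster of 1 library may be that library and not a cell type. The range comes from sums of all chondrocytes, and smaller pseudobulks leave it too. In control resting chondrocyte-like cells *Klf4* ran from 281 to 548 CPM. The share of all genes outside the range in the 2 clusters is not given here.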
